A study of Canis rufus and Canis latrans with 56 samples.

Results

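Heterotrimeric G proteins were examined in whole blood of red wolves (Canis rufus), a rare canid of North America, and a coyote, through the probes annotated to GNAI2, GNAI3, GNAS, GNA13, GNA15, GNB1, GNB2 and RGS2. The members were chosen by gene name. They comprise 5 alpha subunits, 2 beta subunits and 1 regulator, and they were measured by 10 of the 24354 probes on the array, or 8 of the 16121 genes that the probe annotation names. GNAI2 was already known to vary widely between these wolves when the genes were picked, so its spread is given as a description.

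A heterotrimeric G protein carries the signal of a seven-pass membrane receptor to enzymes and channels inside the cell. An activated receptor makes the alpha subunit exchange GDP for GTP, alpha then separates from the beta-gamma pair, and both parts act on effectors until the alpha subunit hydrolyses its GTP, a step that RGS proteins speed up. In blood, alpha subunits of the Gi class serve the chemokine and formyl peptide receptors that steer white cells, Gs raises cyclic AMP, and the class of GNA15 activates phospholipase C.

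The series holds 13 red wolves and 1 coyote, and labelled RNA from each was put on 4 human Illumina bead arrays, 56 in all on 7 slides of 8. Of the wolves, 6 were captive (2 females, 4 males) and 7 free-ranging (2 females, 5 males), and the coyote was a free-ranging female. Age, health and treatment are not given in the sources used here, nor which wolf was captive or of which sex, so neither was compared. The 4 arrays of an animal are technical repeats, and the animal is the unit of every comparison between animals. These arrays share the animal's labelled RNA. Differences in blood handling, extraction or labelling thus cannot be told apart from differences between animals. Precision is limited by how many arrays an animal had. A gene name is that of the human probe, and the canid transcript that bound to it was not measured, so the order of 2 different probes does not rank their transcripts. No probe sequence was used here. Levels are log2 intensities minus their array's mean, adjusted for slide unless called array values, and a difference of 1 is a doubling of intensity.

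The brightest of 41 measured liver and muscle genes, HPX at a mean of 0.40, set the background bound used here. Brighter than it were 7 of 12 red cell markers, 2 of 12 monocyte, 2 of 12 T cell, 2 of 10 cytotoxic cell, 1 of 15 neutrophil, 1 of 9 platelet and 0 of 7 B cell markers, against 9.91% of all named genes. Wolf 11136 stood apart. Its arrays had on average the narrowest signal range, a mean SD over probes of 0.365 against 0.437 to 0.565 in the other wolves. Single arrays of wolf 11310 ran from 0.347 to 0.573, so its lowest lay within the 0.338 to 0.388 of wolf 11136. In whole blood, fewer cells of a type and less RNA per cell cannot be told apart.

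Of the 8 genes, GNAI2, GNAS, GNB2 and GNB1 had a mean above the bound over the 14 animals, and GNAI3, GNA13, GNA15 and RGS2 did not. The same 4 genes above the bound differed among the wolves by more than array noise (limma, moderated F test of animal with slide in the model, Benjamini-Hochberg adjusted p under 0.05 over all probes), and none of the 4 below it passed. Among all named genes the share that passed was 12.8%, and among all probes 11.2%. Above the bound 78.1% of probes passed, and at or below it 5.02%, so 4 of 4 bright members is near the background of bright probes. GNAI2 counts among them as a gene whose spread was known, and its call supports nothing. The members' median SD over wolves was 0.14 on the log2 scale, against 0.09 for all named genes. That comparison is not matched for brightness, and the median SD of all probes above the bound was 0.24.

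GNAI2 encodes an alpha subunit of the Gi class, which inhibits adenylyl cyclase, and is the main Gi subunit of white blood cells. Its probe was bright in every animal. The slide-adjusted log2 level was 5.23 in wolf 11270, 5.18 in 11206, 5.15 in 111080, 5.01 in the coyote, 4.91 in wolf 11310, 4.73 in 11105 and 4.40 in 10537. It was 3.70 in wolf 11148, 3.52 in 10632, 3.48 in 11274, 3.37 in 11275, 3.02 in 10406, 2.79 in 11273 and 2.48 in 11136. By slide-adjusted level the animals thus lay in an upper and a lower set. They were parted by 0.70 (95% interval of array error 0.34 to 1.06) between wolves 10537 and 11148. This was the only step between neighbours in the order that exceeded array error. The order inside each set is thus not resolved step by step. The step was picked after the values were seen and rests on the slide terms. On slide 32021, which alone held both wolves, 11148 was higher (array values 4.44 against 4.32). Mean array values were 4.23 in 10537, 4.00 in 11148 and 3.49 in 11275, and by these the widest step lay below 11148. Both the size and the place of the step thus depend on slide adjustment, as does the set of wolf 11148.

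The mean of GNAI2 over the wolves was 4.00 ± 0.98 (SD, n = 13), and the highest wolf had 6.73 times the intensity of the lowest. Its SD ranked 14th of the 2064 probes above the bound, whose median SD was 0.24. The SD of single arrays around the animal and slide terms was 0.25, and the share of variance between wolves was 0.940. Of the 78 pairs of wolves, 61 lay farther apart than array error.

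The extremes of GNAI2 can be read on single arrays. The 4 array values of wolf 11270 were 4.61, 4.88, 5.26 and 5.74, and those of wolf 11136 were 1.80, 2.28, 2.82 and 3.04. The arrays of the 2 wolves did not overlap. On the slides that held both, 32010 and 32022, wolf 11270 was higher by 2.81 and 2.59. Slide also moved the probe (adjusted p = 9.31e-11 in limma), with slide terms from -0.49 to 0.54, smaller than the distance between the extreme wolves. Without the slide term wolf 111080, at a mean array value of 5.18, was the highest wolf.

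**Figure D1:**
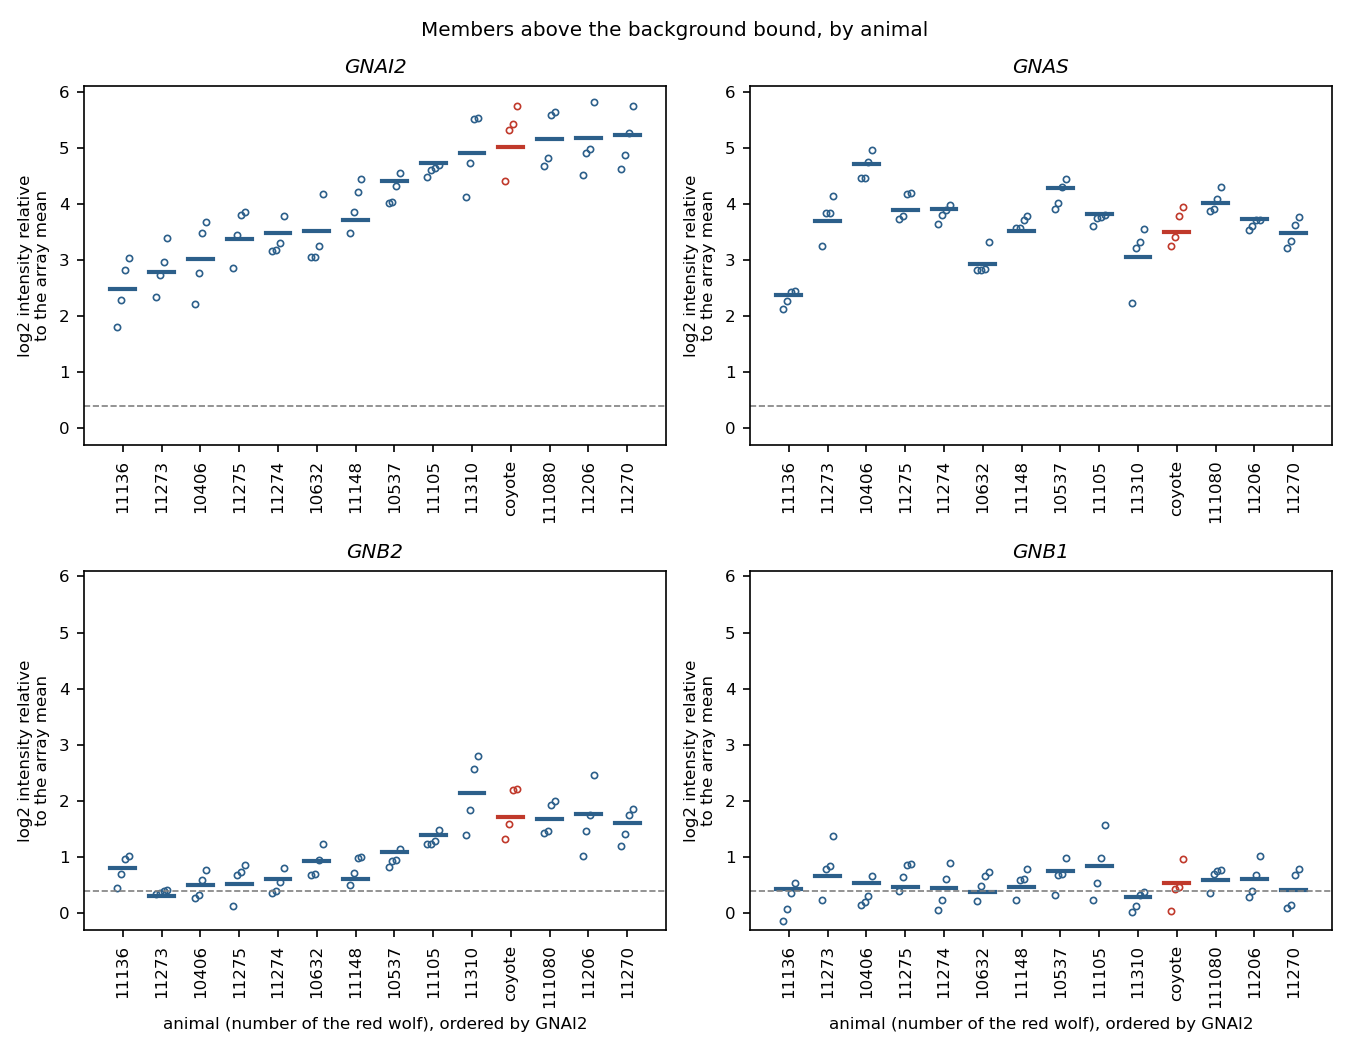
Log2 level relative to the array mean (y axis) of GNAI2, GNAS, GNB2 and GNB1 in 13 red wolves (blue) and the coyote (red), with animals ordered by GNAI2 along the x axis; open circles are the 4 arrays as deposited, bars the slide-adjusted level, and the dashed line the background bound of 0.40. Slide-adjusted GNAI2 steps up by 0.70 between wolves 11148 and 10537. By slide-adjusted level the 7 wolves lowest in GNAI2 are also the 7 lowest in GNB2, though their border in GNB2 lies within array error. GNAS follows another order with wolf 11136 lowest at 2.37, and GNB1 stays close to the bound.

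GNAS encodes the stimulatory alpha subunit Gs, which activates adenylyl cyclase. It has 3 probes on the array. The brightest, GI_18426899-A, ran from 2.37 in wolf 11136 through a median of 3.73 to 4.71 in wolf 10406, a 5.07-fold span, with a mean of 3.65 ± 0.60 (SD, n = 13). Wolf 10537 followed at 4.29 and 111080 at 4.01, while 11310 (3.05) and 10632 (2.93) stood below all but 11136. The steps from 10406 to 10537, from 11270 to 11310 and from 10632 to 11136 exceeded array error. The other steps of the order did not. Array values of wolf 11310 were 2.22, 3.22, 3.33 and 3.55, so the step down to it leans on its lowest array. That step was not retested without that array.

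The array values of GNAS in wolf 10406 were 4.46, 4.46, 4.74 and 4.96, and in wolf 11136 they were 2.12, 2.27, 2.43 and 2.44. These wolves shared all 4 slides, and 10406 was higher by 2.19 to 2.54 on each. The animal term passed (limma, adjusted p = 2.08e-19), and 55 of 78 pairs of wolves differed by more than array error. Without wolf 11136 the span fell from 2.34 to 1.78 on the log2 scale, and it was 0.66 for the mean of the 3 probes, with wolf 10632 lowest. The other probes of GNAS are isoform probes at mean levels of 0.15 and -0.21, below the bound. The dimmer one, GI_18426897-I, still differed among wolves (limma, adjusted p = 0.00215) and was highest in wolf 11136 at 0.09, where the bright probe was lowest.

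GNB2 encodes a beta subunit, the partner that with a gamma subunit binds alpha and acts on its own effectors. Its level was 2.13 in wolf 11310, 1.76 in 11206, 1.68 in 111080, 1.61 in 11270, 1.39 in 11105, 1.08 in 10537 and 0.93 in 10632. It was 0.81 in wolf 11136, 0.61 in 11148, 0.61 in 11274, 0.51 in 11275, 0.51 in 10406 and 0.31 in 11273, the only wolf below the bound. The first step of the order, from 11310 to 11206, exceeded array error, and no other did. On slide 32022, which alone held both wolves, 11206 was higher (array values 1.47 against 1.39). That step thus rests on the slide terms.

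The mean of GNB2 was 1.07 ± 0.58 (SD, n = 13), with a 3.53-fold span. Wolf 11310 gave array values of 1.39, 1.83, 2.58 and 2.79, and wolf 11273 gave 0.34, 0.36, 0.39 and 0.41, without overlap. On the slide they shared the difference was 2.18. The animal term passed (limma, adjusted p = 2.99e-18) and 54 of 78 pairs of wolves differed by more than array error. Without wolf 11310 the span dropped from 1.82 to 1.42 on the log2 scale.

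GNB1 encodes the other beta subunit among the members. Its level ran from 0.29 in wolf 11310 through a median of 0.46 to 0.84 in wolf 11105, and 11 of 13 wolves lay above the bound. The mean was 0.53 ± 0.16 (SD, n = 13) and the span 1.46-fold. The array values of wolf 11105 were 0.23, 0.54, 0.98 and 1.57, and those of wolf 11310 were 0.02, 0.12, 0.32 and 0.38, so the extremes overlapped. No step between neighbours exceeded array error, and 21 of 78 pairs of wolves did. The animal term passed narrowly (limma, adjusted p = 0.0220, range over the alternatives 0.00482 to 0.355), and the call was lost under 11 of 27 alternatives. These were quantile normalization (adjusted p = 0.355), arrays at one SD (0.0968), no slide term (0.255), slide as a random block (0.236), any 1 of the 4 arrays of each animal left out (0.0826 to 0.228), and the fit without wolf 10537 (0.0889), 11105 (0.0961) or 11310 (0.0634).

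The remaining 4 genes stayed below the bound in every wolf. GNAI3 encodes a second Gi subunit, and its level ran from -0.37 in wolf 11275 to 0.09 in 10406. GNA13, another alpha subunit, ran from -0.32 in wolf 11206 to 0.02 in 11273. GNA15, of the Gq class and found mainly in blood-forming cells, ran from -0.04 in wolf 111080 to 0.16 in 11136. RGS2, a GTPase activator that acts mostly on Gq, ran from -0.19 in wolf 11136 to 0.13 in 11274. Adjusted p values in limma were 0.258, 0.405, 0.839 and 0.489 in that order. Each of these ranges lies below the brightest liver and muscle gene. A probe this dim can still pass, as 5.02% of those at or below the bound did.

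**Figure D2:**
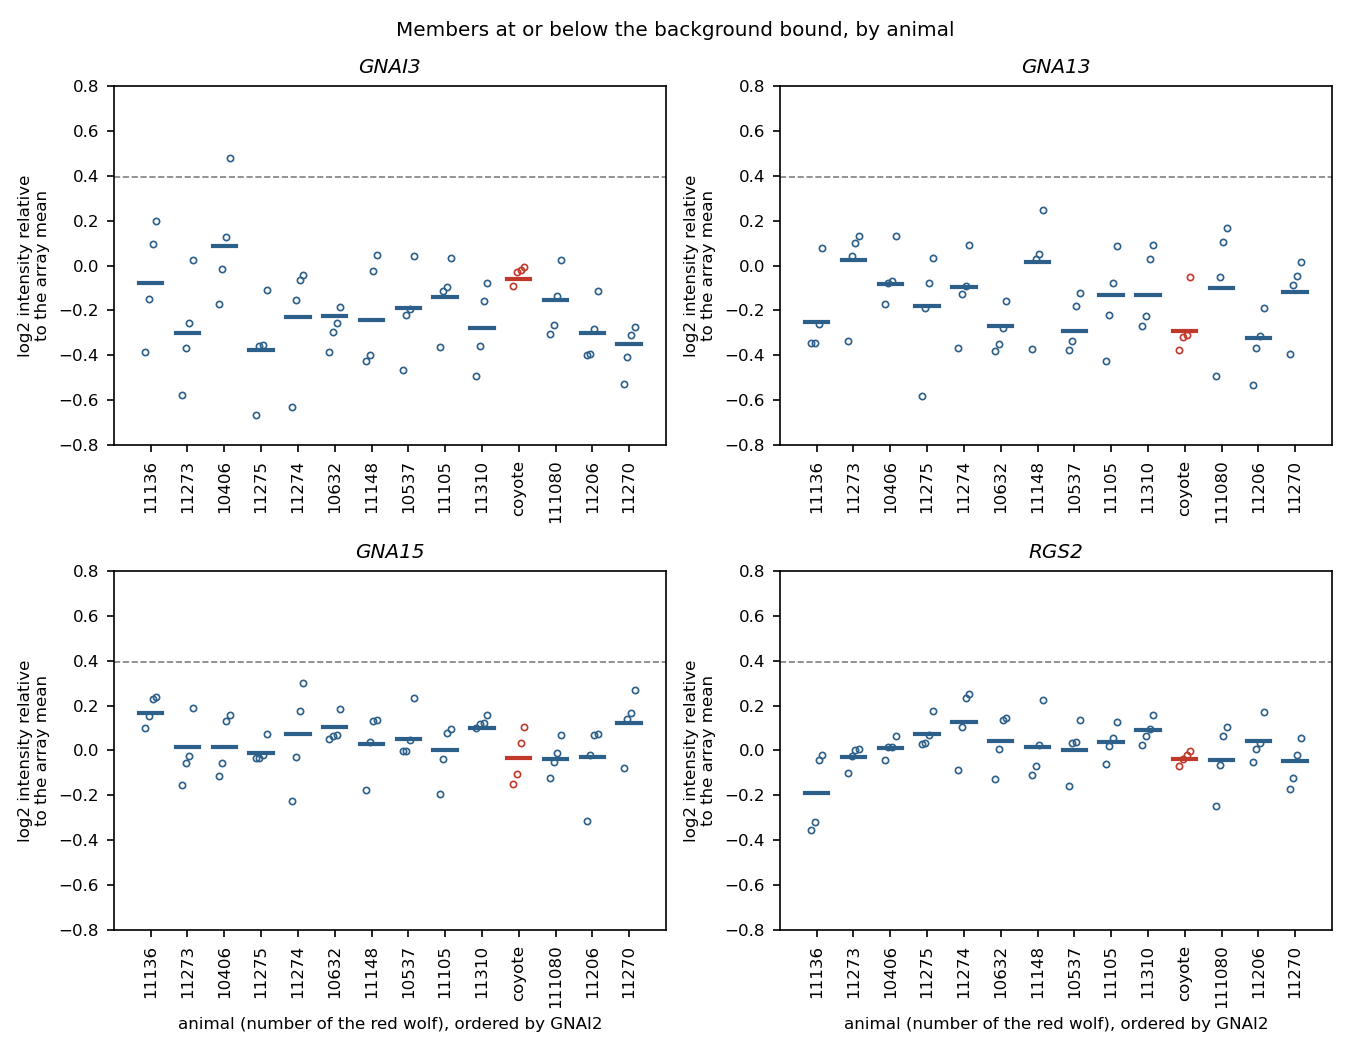
Log2 level relative to the array mean (y axis, a narrower scale than for the bright members) of GNAI3, GNA13, GNA15 and RGS2 in 13 red wolves (blue) and the coyote (red), ordered by GNAI2; open circles are arrays as deposited, bars slide-adjusted levels, and the dashed line the bound of 0.40. The bars of all animals lie below the bound, between -0.37 and 0.16, while single arrays of an animal scatter as widely as the animals do.

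**Figure D3:**
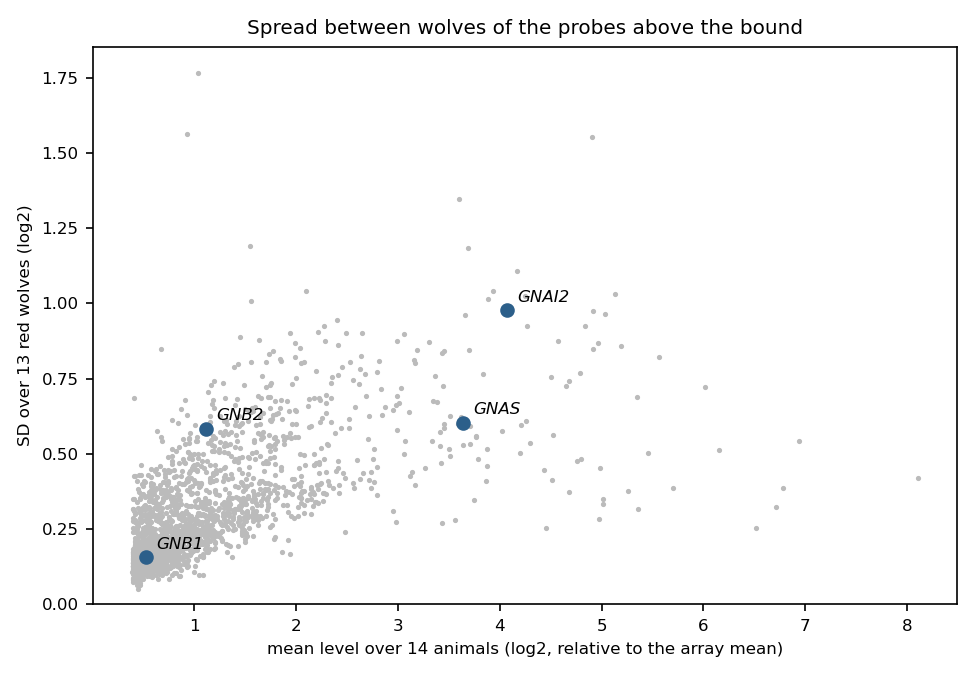
SD over the 13 red wolves (y axis, log2) against the mean level over the 14 animals (x axis, log2 relative to the array mean) for the 2064 probes above the bound (grey), with 4 members in blue. GNAI2 lies near the top with an SD of 0.98, GNAS (0.60) and GNB2 (0.58) well above the median of 0.24, and GNB1 (0.16) below it.

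The 8 members form 28 pairs, and their levels were correlated over the 13 wolves. GNAI2 and GNB2 had the only correlation that passed after adjustment, with Pearson r = 0.884 (permutation p = 0.00017, adjusted 0.00476) and Spearman rho = 0.857 (permutation p = 0.00051, adjusted 0.0143), both two-sided. Without the 2 wolves farthest from the GNAI2 median r was 0.851, and within each of the 7 slides, of 7 or 8 wolf arrays, it lay between 0.838 and 0.970.

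Slide-adjusted GNB2 lay between 1.08 and 2.13 in the 6 wolves of the upper set. It lay between 0.31 and 0.93 in the 7 of the lower set. The step between these ranges, from wolf 10537 to 10632, was 0.15 and within array error (interval -0.17 to 0.47). On slide 32011 wolf 10632 was higher (array values 0.94 against 0.83), and on slide 32010 wolf 10537 was (0.93 against 0.68). The GNB2 ranges of the sets are thus not resolved at their border. Inside the upper set r was 0.639 (exact permutation p = 0.181, n = 6) and inside the lower set 0.160 (exact permutation p = 0.731, n = 7), and neither passed. The sets were drawn on slide-adjusted GNAI2 after its values were seen, and their border depends on that adjustment. Drawing them narrows the range of GNAI2 and lowers r inside each. These values thus do not show that the relation lies only between the sets. Among the 1596 other named genes above the bound, 9.77% had an r with GNAI2 at least as high as that of GNB2, where the median gene had 0.285.

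No other pair passed. The r of GNAS was 0.151 with GNAI2 and -0.185 with GNB2, and that of GNB1 was 0.136 with GNAI2 and -0.087 with GNB2. Wolf 10406, the highest of all in GNAS, stood above only wolves 11273 and 11136 in GNAI2. The sign of r between GNAI2 and GNAS or GNB1 turned under quantile normalization (-0.46 and -0.204) and with arrays scaled to one SD (-0.468 and -0.313). Under quantile normalization GNAS and GNB2 ran opposite, with r = -0.792 (permutation test, adjusted p = 0.0423), against an adjusted p of 0.868 as deposited. GNAS and GNA15 had r = -0.703 (adjusted p = 0.0948) and GNAS and GNB1 r = 0.549 (adjusted p = 0.357), neither past the threshold.

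**Figure D4:**
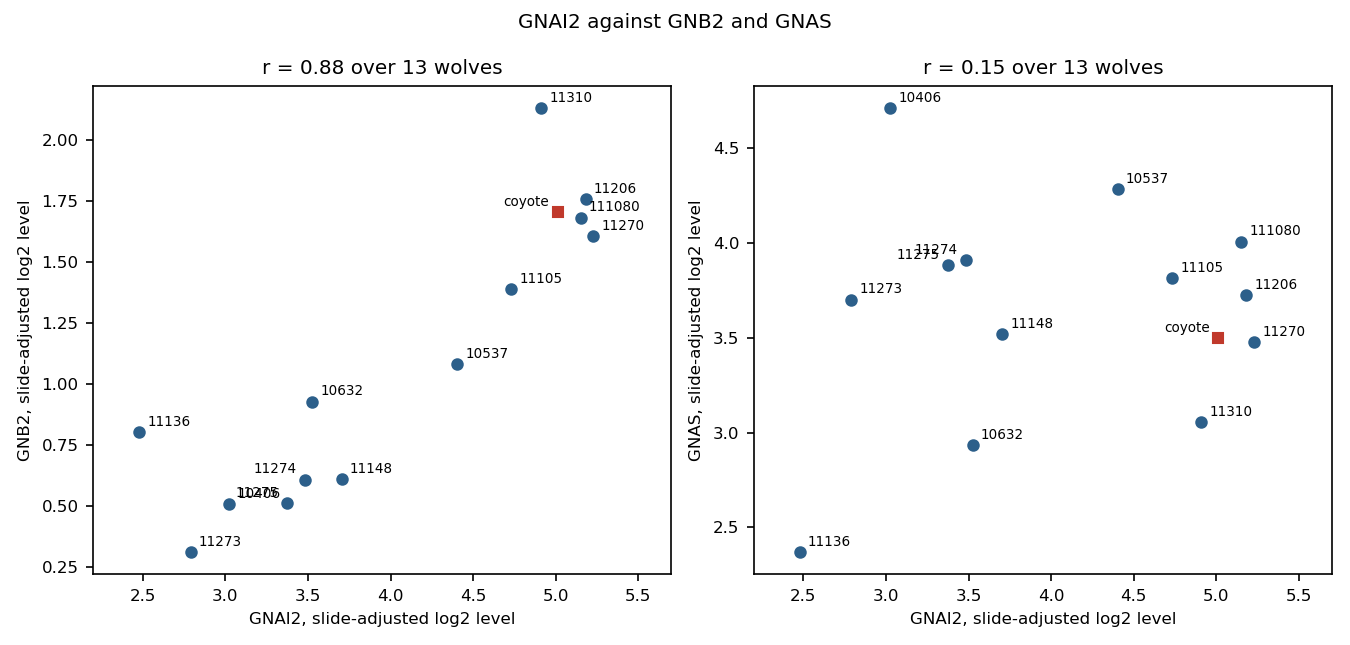
Slide-adjusted log2 level of GNAI2 (x axis) against GNB2 (left, y axis) and GNAS (right, y axis), 1 point per animal, with 13 red wolves as blue circles labelled by number and the coyote as a red square. On the left the wolves form an upper and a lower set by slide-adjusted GNAI2. There r is 0.88 over all 13, 0.639 inside the upper set and 0.160 inside the lower. On the right no line is seen (r = 0.15).

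Signal range moved with GNAI2. The SD over probes of an animal's arrays correlated with GNAI2 (r = 0.696, permutation p = 0.00612, adjusted 0.0245 over 8 members) and inversely with GNA15 (r = -0.726, adjusted p = 0.0245). Neither passed by rank (rho = 0.632 and -0.714, permutation tests, adjusted p = 0.0966 and 0.0666). Without wolves 10406 and 11136, the farthest in array SD, r with GNAI2 was 0.484 and with GNA15 -0.746. With every array scaled to one SD, GNAI2 still spanned 2.09 on the log2 scale, with wolf 11310 highest and 11273 lowest, and r with GNB2 was 0.875.

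Cell markers were set beside the 4 bright members as the mean of each whole list, 28 correlations chosen after the data were seen. None passed (permutation test, lowest adjusted p = 0.102), though some did under 5 of 22 alternatives, as many as 5 after centring on the array median. Monocyte markers had r = 0.718 with GNB2 and 0.510 with GNAI2. Their sum rests on few signals: 9 of the 12, CD14, CSF1R and LYZ among them, were at or below 0, and the list mean ran from -0.11 to 0.02 over the wolves. Platelet markers had r = 0.672 with GNAS and 0.700 with GNB1, and red cell markers 0.652 with GNAS and -0.605 with GNB2.

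The monocyte markers above the bound were FCER1G and TYROBP, adaptors of activating receptors in myeloid and NK cells. The bound was applied to the mean over the 14 animals, which for FCER1G includes a coyote far above the wolves. The range of FCER1G over the wolves, given with the coyote comparison, reaches below the bound. Relations of these 2 genes were also chosen after the data were seen. FCER1G had r = 0.789 with GNAI2 and 0.803 with GNB2 (permutation tests, both adjusted p = 0.00238 over 4 relations), and TYROBP 0.468 and 0.278 (adjusted p = 0.146 and 0.358). Of the other named genes above the bound, 24.8% had as high an r with GNAI2 as FCER1G. The part of cell makeup in the levels of GNAI2 and GNB2 was not tested.

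The genes whose pattern over the 13 wolves was most like GNAI2, among named genes above the bound, were GRAMD1A (r = 0.986), the mitochondrial phosphate carrier SLC25A3 (0.980), the nuclear body protein SP100 (0.978), the kinase MARK2 (0.974), the RNA-binding protein HNRNPA3 (0.969) and RSU1 (0.966). GRAMD1A ran from 2.62 in wolf 11273 to 5.84 in 11270, an even wider range. The least like were DHX8 (-0.699), DNAJB4 (-0.630) and CER1 (-0.624), all close to the bound. These r values were picked as the extremes of the list and carry no test. For GNB2 the nearest were EFHD2 (0.974), the ubiquitin-like modifier NEDD8 (0.973), TRAPPC3 (0.970) and HNRNPD (0.969).

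The nearest genes to GNAS were HTATIP2 (r = 0.954), TAAR2 (0.936), EPPIN (0.928) and UBXN10 (0.926), each lowest in wolf 11136, as GNAS was. For GNB1 they were PAPPA2 (0.897), IDO2 (0.897), RAVER1 (0.888) and GGA2 (0.882), all highest in wolf 11105. For members at background the highest r was lower, 0.646 for GNAI3 with PPP1R14A, 0.763 for GNA13 with CYP4A11, 0.560 for GNA15 with ORC5 and 0.802 for RGS2 with CNBP. The likeness of RGS2 to EEF1A1 (0.689) and RPL18 (0.678) turned to -0.0497 and -0.149 without wolf 11136.

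Other genes of the pathway were read from 7 lists. Of 137 measured genes 16 differed among wolves, against 12.8% of all named genes, a share near the background, and 9 of the 137 lay above the bound.

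Among the other subunits, 1 of 10 alpha and 1 of 13 beta or gamma genes passed. GNA11, a Gq class subunit, ran from 0.81 in wolf 11136 to 1.87 in 11105 (limma, adjusted p = 3.06e-07). GNB3 stayed below the bound on average (adjusted p = 0.0478 in limma, lost under 16 of 26 alternatives).

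Of 19 other RGS genes 4 passed. RGS3 had the widest spread of them, from 0.80 in wolf 10406 to 2.82 in 11310, a 4.08-fold span (limma, adjusted p = 1.57e-16). RGS5, RGS16 and RGS12 spanned 1.38-fold, 1.48-fold and 1.40-fold, and their calls were lost under 8 of 27, 5 of 27 and 18 of 26 alternatives. Of 11 other regulators only the receptor kinase GRK5 passed (limma, adjusted p = 0.0156, lost under 5 of 26 alternatives), at a mean level of 0.10.

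Of 28 effectors 3 passed. ARHGEF11, an effector of GNA13, ran from 1.57 in wolf 11310 to 2.86 in 11105, and PRKAR1A, the regulatory subunit of the cyclic AMP-dependent kinase, from 0.79 in 11310 to 2.12 in 11148 (limma, adjusted p = 1.07e-08 and 1.25e-11). RAP1GAP passed below the bound (adjusted p = 0.0386 in limma, lost under 16 of 26 alternatives). Wolf 11310, the highest in GNB2 and RGS3, was the lowest in ARHGEF11 and PRKAR1A. It was also the lowest in GNB1 and in genes outside the pathway such as IDO2 and GGA2, so its place is not particular to these genes.

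Of 30 chemoattractant and lipid mediator receptors 2 passed, the sphingosine-1-phosphate receptor S1PR2 (0.95 to 2.09) and LPAR2, the second below the bound. S1PR2 was lost under 1 of 27 alternatives and LPAR2 under 17 of 26. Of 26 other receptors of blood cells 4 passed: the adenosine receptor ADORA1 (1.03 in wolf 11310 to 2.13 in 11148), GPR18, P2RY13 and the thromboxane receptor TBXA2R, the last 3 below the bound. ADORA1 and GPR18 passed under all alternatives run for them, while P2RY13 was lost under 7 of 26 and TBXA2R under 15 of 26. Of the 26 and the 30 receptors, 2 and 1 exceeded the bound, against 9.91% of all named genes.

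None of the 8 members passed the test of the coyote against the wolves (limma on 1 value per animal, 12 residual degrees of freedom, smallest adjusted p = 0.998). None passed at an unadjusted p under 0.05 either, and over the whole array 1 probe passed, 0.00411% of those tested. The coyote's GNAI2 was 5.01, below 3 of the wolves and inside the upper set, 1.01 above the wolves' mean (95% interval -0.79 to 2.82). It lay above the average of the 7 wolf arrays on every slide it shared with them, by 0.78 to 1.41 on 4 slides. GNB2, at 1.71, was below 2 of the wolves and 0.63 above the wolves' mean (95% interval -0.28 to 1.55), and GNAS, at 3.50, was -0.15 from it (95% interval -1.60 to 1.30). GNB1 differed by 0.02 (95% interval -0.32 to 0.35), with a sign that turned without the slide term (-0.06). The intervals rest on the assumption that a coyote varies as the wolves do, since only 1 was measured. The 1 probe past the test was that of FCER1G, at 2.03 in the coyote and from -0.19 to 0.82 in the wolves (limma, adjusted p = 0.00132). Without the intensity trend that call was lost and 0 probes passed.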

How the data were processed

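Whole-blood RNA kept in RNAlater was extracted, amplified and biotin-labelled, and each animal's labelled RNA went to 4 human bead arrays, per the labels' protocols. The scanner software was BeadStudio 1.5.0.34 according to the submitters' processing notes. Deposited were log2 intensities that the authors centred, per the labels' design text, on the array median. In the table the array mean is 0 (largest absolute mean 3.24e-09) and the medians run from -0.167 to -0.0325, so values are relative to the mean. Array SD was left unequal (0.338 to 0.669). Background subtraction and detection are not given in the sources used here, and folds are those of the deposited intensities.

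The members and all gene lists were chosen with earlier results of these data known. Probes were named by the platform annotation (18339 with 1 symbol, 6015 with none, 0 with several). Each gene was taken by its brightest probe. Arrays were fitted in limma 3.58.1 (R 4.3.3) with animal and slide terms and eBayes with an intensity trend, and p values were Benjamini-Hochberg adjusted at 0.05 over all probes. Repeat arrays give the array noise, and the F test asks whether animals differ by more than that noise. Array noise leaves out the handling, extraction and labelling of each animal's RNA, which count as differences between animals. The pairwise intervals of array error are unadjusted for the 78 pairs. The coyote was compared on slide-adjusted animal values, and correlations used 100000 permutations (smallest p they can give 1e-05) in families of 28, 8, 28 and 4. Scripts were tested on simulated data. The named genes were all members, up to 4 genes per pathway list that passed with the largest SD, the 6 most and 3 least like GNAI2, and the 4 most like each other member. The marker correlations, the sets of GNAI2 and the coyote value of FCER1G were chosen after the values were seen. Alternatives changed scaling, centring, slide, position, trend, dim probes, the probe of a gene, arrays and wolves. A note of collection in the wild stands with 3 wolves and the coyote. It covers fewer wolves than the 7 free-ranging ones and was not used as a group.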

Additional observations from a re-analysis of the deposited data

Results flagged for a closer look

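Of 112 sets of 4 arrays of an animal, tested per member, 4 held an array far from the other 3, and chance flags about 1 in 20 such sets. In wolf 10632 the highest array stood apart for GNAI2, at 4.18 against 3.05 to 3.24 on the others. The same wolf's highest array stood apart for GNAS, at 3.31 against 2.82 to 2.84, and for GNA15, at 0.185. In wolf 11275 the highest array for GNA15 was at 0.0724. These are values as deposited, and 3 of the 4 flagged values lay on slide 32020. The GNAI2 and GNAS values of wolf 10632 came from the same array, so they are not independent. Its GNA15 value came from slide 32024. With slide terms removed, an alternative chosen after seeing the data, 6 sets were called and 0 of these 4 were among them.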

How the results depend on the processing

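The number of members that differed among wolves was 3 or 4 under all 27 alternatives, GNB1 being the one lost, and 0 members differed from the coyote under the 26 that could be run there. GNAS and GNB2 passed under all of them, as did r between GNAI2 and GNB2 (0.753 to 0.936 over 22). The pathway count of 16 fell to 9 under quantile normalization, 9 without the slide term and 8 with dim probes left out, where only genes above the bound are tested, and lay between 9 and 16 with arrays or wolves left out. The number of member pairs called was 2 under quantile normalization, 2 without the slide term (GNA15 with GNB1, r = -0.765, beside GNAI2 with GNB2) and 1 to 2 with arrays or wolves left out. Members correlated with signal range numbered 1 after median centring and 0 to 3 with arrays or wolves left out, with 0 without wolf 11105, 111080, 11136 or 11206.

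Signs turned for values near 0. The coyote difference of GNB1 was -0.059 without the slide term, -0.022 with position as a covariate and -0.059 to 0.096 with arrays or wolves left out. The r of GNAI2 was -0.46 with GNAS and -0.204 with GNB1 under quantile normalization, and -0.468 and -0.313 with arrays at one SD. With arrays or wolves left out it ran from -0.211 (without wolf 11136) to 0.383 for GNAS and from -0.009 to 0.301 for GNB1. In the same way r of GNB1 with GNB2 ran from -0.264 to 0.217 (without wolf 11310), of array SD with GNAS from -0.0012 (without wolf 11136) to 0.772, of TYROBP with GNB2 from -0.0561 to 0.476, and of RGS2 with EEF1A1 from -0.0497 to 0.794 and with RPL18 from -0.149 to 0.77. The cause was not tested.

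Correlations with array SD have no value when arrays are given one SD. Correlations were not rerun for trend, dim probes, position or the probe of a gene, and a random slide block was run for the wolves alone. Slide, which animals share, was the block in the main fit, and the labels give no replicate numbers to pair by. The 4 genes below the bound are read no closer than that bound.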
